A study of Mus musculus with 8 samples.

Results

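The ETS transcription factors examined here were 10 genes, Ets2, Etv3, Etv6, Elf1, Elf2, Elf4, Elk3, Elk4, Spi1 and Fli1, out of 23143 genes in a count table from activated macrophages. They were taken as members of a gene family, by name, from the rows of that table, with earlier results of these data known. The other 16 ETS genes of the mouse are described separately below. For 9 of the 10 the row carried the gene's own symbol. Spi1, which encodes PU.1, was found under its older symbol Sfpi1 by its RefSeq accession. The RNA came from RAW264.7 cells, an established mouse macrophage line, so all libraries share 1 cell line grown in culture. One culture was unstimulated (0 min), and the other 7 were exposed to 100 ng/ml of E. coli LPS, the bacterial component sensed by Toll-like receptor 4, for 15, 30, 45, 60, 75, 90 or 120 min. There is 1 library for each time, and values for a gene are listed below in this order, from 0 to 120 min. A difference between 2 libraries therefore has no replicate check, and intervals given with single values cover counting error only.

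All ETS factors share a DNA-binding domain that recognises a GGAA core, and they differ in the sequences around it, in the partners they bind and in whether they activate or repress. PU.1 is the factor that defines the macrophage lineage and occupies many myeloid enhancers and promoters. Elk1, Elk3 and Elk4 are ternary complex factors, which sit beside serum response factor (SRF) at immediate early genes and are phosphorylated by MAP kinases. Ets2 is also a target of MAP kinases in macrophages, whereas Etv3, Etv6 and Erf act mainly as repressors. LPS activates both NF-κB and MAP kinase signaling in these cells, and the libraries show how the mRNAs of this family moved over the first 120 min.

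Total counts ranged from 100250892 at 75 min to 159077286 at 120 min. The ribosomal RNA precursor Rn45s took 8.18% to 9.11% of the counts at 0, 30, 60 and 120 min and 13.0% to 20.5% at 15, 45, 75 and 90 min. Levels are given as normalized counts, which are counts divided by a median-of-ratios size factor for each library (0.710 to 1.23). The labelled cell type was borne out by the marker genes: 6 macrophage markers summed to 5381 to 6559 cpm (counts scaled to 1e6 per library) in every library, while 4 T cell markers summed to at most 0.124, 3 B cell markers to at most 0.119, and 3 fibroblast and 3 epithelial markers to at most 0.00763 and 0.00946. In bulk RNA, fewer cells expressing a gene and less RNA per cell cannot be told apart.

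Before stimulation the family was dominated by 1 member. Spi1 reached 123.4 rpkm, the reads per kilobase of transcript scaled to the library total, with an exact Poisson 95% interval of 122.0 to 124.8. Fli1, a factor of blood and vessel cells, followed at 36.7 rpkm, and Elf1 and Etv3 stood at 25.5 and 17.9 rpkm. Elf2, Elk3 and Etv6 lay close together at 11.1, 9.83 and 9.03 rpkm. Elk4 and Elf4 came next at 6.68 and 3.84 rpkm, and Ets2 was the lowest of the 10 at 3.03 rpkm (2.88 to 3.19). The median of 12259 tested genes with a known length was 8.31 rpkm at 0 min, so 7 of the 10 members lay above it. The counting intervals of neighbours in this order did not overlap, although the spread between cultures is unknown. Highest over lowest, the members spanned 40.7-fold. Taking the longest annotated transcript of each gene as its length left the order unchanged but lowered Etv3 to 12.6 rpkm.

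**Figure D1:**
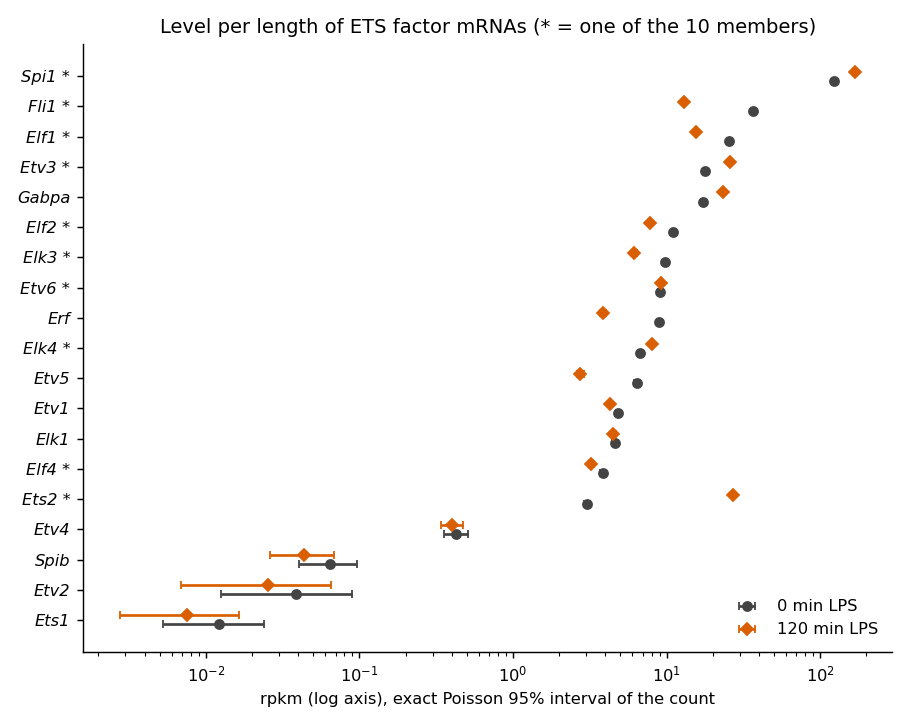
Level per length (rpkm, log axis) at 0 and 120 min of LPS for the 19 ETS genes with at least 0.01 rpkm at 0 min, with exact Poisson 95% intervals of the count. Spi1 was highest at both times, Ets2 moved from 3.03 to 27.3 rpkm and Fli1 from 36.7 to 12.9 rpkm, while Ets1, Etv2 and Spib stayed under 0.1 rpkm.

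To ask which members changed with time, a straight line on time was fitted to the counts of the 8 libraries (edgeR's quasi-likelihood test, Benjamini-Hochberg adjustment over 12490 genes, limit 0.05). All 10 members passed the filter on low counts. Ets2, Etv3, Spi1 and Elk4 rose, Fli1, Elf1, Elk3 and Elf2 fell, and Etv6 and Elf4 were not called. Of all genes tested, 23.4% rose and 23.1% fell, and the counts of 4 rising and 4 falling members are to be read against that background. The median slope of the members was 0.05 log2 units per hour, and that of all genes was -0.0002. Each stimulated library was also compared with the 0 min library by the study's rule, which uses a negative binomial test with a dispersion taken from all 8 libraries, an unadjusted p limit of 0.05 and a log2 ratio beyond 0.5. This rule compares libraries and not conditions. It called 1 member higher at 30 min (Ets2) and 1 at 60 min (Ets2), against 1.41% and 4.22% of all genes. At 120 min it called 2 members higher (Ets2 and Etv3) and 1 lower (Fli1), against 9.42% higher and 8.39% lower among all genes. Grouped by the first significant maximum or minimum, Ets2 and Etv3 belonged to g1, whose mRNAs reach a maximum at or after 60 min and which held 9.71% of all genes. Fli1 belonged to g2, the corresponding group of minima, which held 9.81%. The other 7 members had no such extremum (g0).

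**Figure D2:**
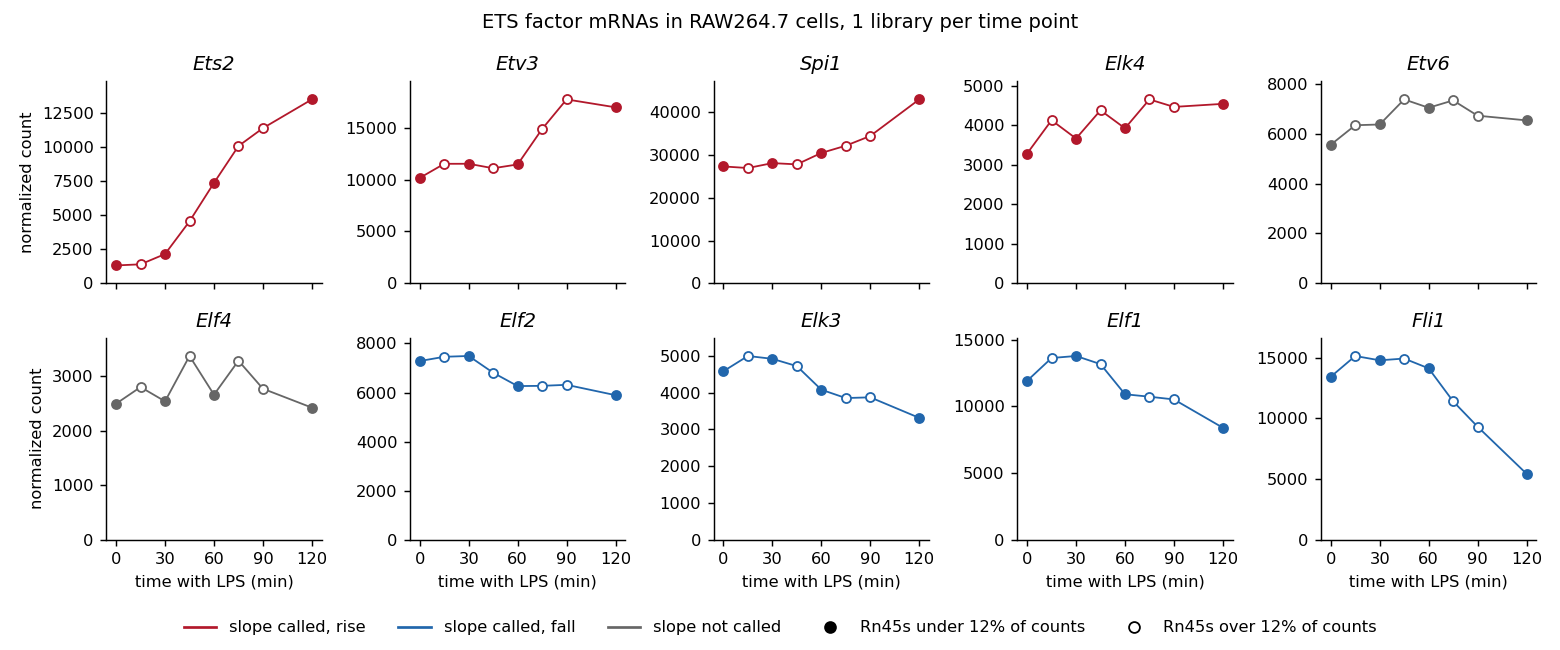
Normalized counts of the 10 members against time with LPS, 1 library per point, each axis starting at 0. Open points are the 4 libraries in which Rn45s took over 12% of the counts. Ets2 climbed from 1303 to 13471, Fli1 ended at 5439 from 13428, and Elf4 was higher at every open point than at any filled one.

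**Figure D3:**
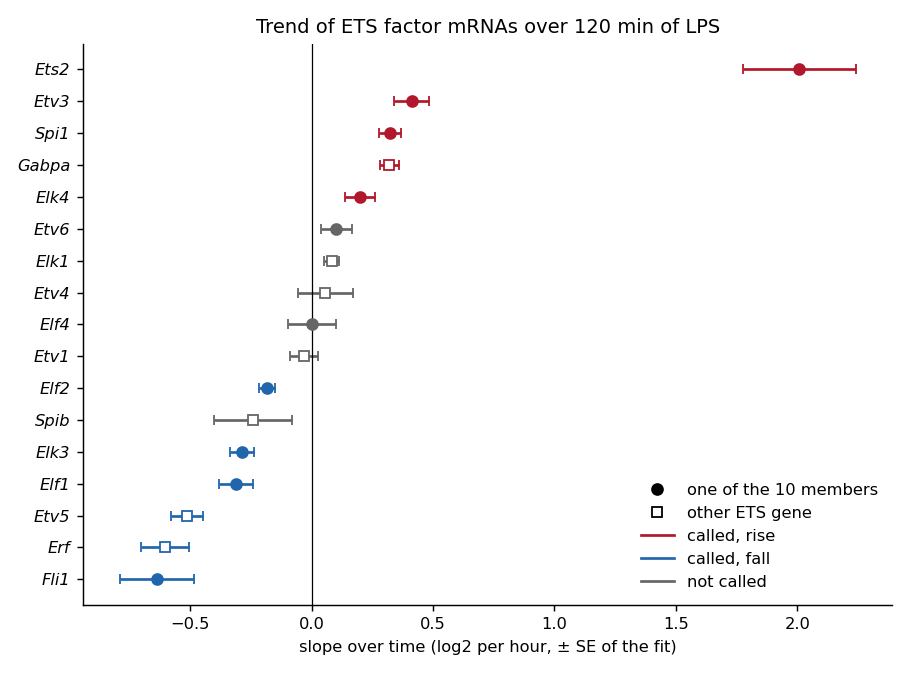
Slope over time in log2 units per hour with its standard error from the edgeR fit over 8 libraries, for the 10 members (circles) and the 7 other ETS genes tested (squares). Ets2 stands apart at 2.01, and the falling end is formed by Etv5, Erf and Fli1 at -0.51, -0.60 and -0.64.

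Ets2 (chr16:95702407-95721049, GRCm38) showed by far the steepest course of the family. Its normalized counts in the 8 libraries were 1303, 1385, 2139, 4536, 7355, 10054, 11365 and 13471. Each of the 7 steps was upward, and no library came near the 0 min level after 15 min. The largest step was from 30 to 45 min, at 2.12-fold (exact binomial 95% interval 2.02 to 2.23), and by 120 min the ratio to 0 min was 10.3-fold (9.81 to 10.9). The slope was 2.01 ± 0.23 log2 units per hour (SE of the fit, 8 libraries, adjusted p = 0.000283), larger than that of 99.1% of the genes tested. The course was curved: against a separate least-squares line through the log2 normalized counts, it lay furthest below at 120 min, by 0.61 log2 units. At 30 min the log2 ratio was 0.72, and the call at that time was lost when the libraries were scaled by total counts (0.69).

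The 300 bases around the start of Ets2 (RefSeq, chr16:95702157-95702456, plus strand) are shown because this gene carries the largest change, with the GGAA core of ETS sites, on either strand, in capitals.
Ets2 promoter: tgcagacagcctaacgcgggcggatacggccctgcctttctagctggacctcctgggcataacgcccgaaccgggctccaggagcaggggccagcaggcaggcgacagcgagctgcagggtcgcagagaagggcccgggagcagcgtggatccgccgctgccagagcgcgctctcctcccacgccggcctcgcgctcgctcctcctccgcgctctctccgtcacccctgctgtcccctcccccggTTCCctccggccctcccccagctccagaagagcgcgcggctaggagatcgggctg
It holds 1 such core, at -5 from the start. The median over 32851 RefSeq promoters of this length was 3 cores (quartiles 2 and 5), and 96.0% held at least 1.

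Etv3 (chr3:87525577-87540158), a repressor known from macrophage differentiation, rose later than Ets2 and from a much higher level. Its normalized counts were 10166 at 0 min, 11525, 11528, 11096 and 11465 from 15 to 60 min, and 14886, 17740 and 16977 from 75 min on. The 3 late libraries were above all 5 earlier ones, and the 4 libraries from 15 to 60 min lay between 11096 and 11528. The step from 60 to 75 min was 1.30-fold (1.27 to 1.33), followed by 1.19-fold to 90 min. At 90 min Etv3 stood 1.75-fold over 0 min (1.70 to 1.79). The slope was 0.41 ± 0.07 log2 units per hour (adjusted p = 0.00192). Under Benjamini-Hochberg adjustment of the comparison between libraries, or with total counts as the scale, Etv3 was no longer in g1. Its change with time was called under each of 16 alternatives, of which 1 tested slope and curvature jointly.

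Etv3 is shown beside Ets2 (RefSeq, chr3:87525328-87525627, plus strand) because its promoter is as rich in GGAA cores as that of Ets2 is poor.
Etv3 promoter: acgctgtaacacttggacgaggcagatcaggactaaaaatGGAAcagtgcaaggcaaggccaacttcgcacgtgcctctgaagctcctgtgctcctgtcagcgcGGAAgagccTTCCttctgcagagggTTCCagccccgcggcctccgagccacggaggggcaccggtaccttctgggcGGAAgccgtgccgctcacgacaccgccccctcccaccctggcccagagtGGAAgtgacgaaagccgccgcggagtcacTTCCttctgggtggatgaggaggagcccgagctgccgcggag
It holds 7 cores, from -210 to 8 relative to the start. Such counts are not particular to these genes. In the uncalled members, the 2 promoters of Elf4 held 8 and 2 cores, and that of Etv6 held 6. In the falling members, the promoters of Elf1 held 2 and 1, those of Elf2 held 1 and 6, and that of Elk3 held 2. The 3 promoters of Elk4, which rose, held 4, 2 and 6. The promoters of Ets2 and Etv3 held neither the longer ETS site CCGGAA (in 14.9% of all promoters) nor the AP-1 site TGANTCA (7.81%). They also lacked the cyclic AMP response element TGACGTCA (1.79%), a CArG box, the element bound by SRF (1.63%), and an NF-κB consensus site (4.51%). Each motif was searched on both strands. A match or its absence in these windows is a description of the letters only.

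Spi1 (chr2:91082374-91115759), already the most abundant member, rose further. Its mRNA level went through 27348, 26974, 28130, 27833, 30505, 32205, 34480 and 43045 normalized counts. The libraries up to 45 min differed little, each later one was higher than the one before, and the largest step was the last, 1.25-fold from 90 to 120 min (1.23 to 1.27). The slope was 0.32 ± 0.05 log2 units per hour (adjusted p = 0.000717). The comparison of the 120 min and 0 min libraries gave a log2 ratio of 0.65, with p = 0.0608 for this pair of libraries in the exact negative binomial test, which missed the limit. With total counts as the scale the slope was 0.19 and its adjusted p 0.0551, and the 45 and 75 min libraries were then below the 0 min library.

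Fli1 (chr9:32422204-32543432) was the member with the clearest decline. From 0 to 120 min the libraries held 13428, 15140, 14783, 14929, 14122, 11405, 9316 and 5439 normalized counts. The 4 libraries from 15 to 60 min were above the 0 min library, and the 3 later ones were below it and below each other in turn. Between 90 and 120 min alone the level changed 0.584-fold (0.565 to 0.604), and at 120 min it was 0.405-fold of that at 0 min (0.394 to 0.417), a log2 ratio of -1.30. The slope was -0.64 ± 0.15 log2 units per hour (adjusted p = 0.00907). The 120 min library carries much of this: without it the slope was -0.35 (adjusted p = 0.0611), and Fli1 left g2.

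The order of the family was thus rearranged. In rpkm, Ets2 amounted to 0.0826 of Fli1 in the unstimulated cells, to 0.443 of it at 60 min, and to 1.04 and 2.11 of it in the last 2 libraries. By 120 min Ets2 was the second most abundant member at 27.3 rpkm (26.8 to 27.7), next to Etv3 at 26.0 rpkm (25.6 to 26.3), and Fli1 was at 12.9 rpkm, behind Elf1 at 15.6 rpkm. At that time the counting intervals of Elk4 (8.04 rpkm) and Elf2 (7.80 rpkm) overlapped. Spi1 exceeded the next member 3.36-fold at 0 min and 6.20-fold at 120 min. The summed rpkm of all 26 ETS genes ranged from 269.8 at 75 min to 324.4 at 120 min. Rpkm values are scaled to total counts, Rn45s included, so their folds differ from those of normalized counts.

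**Figure D4:**
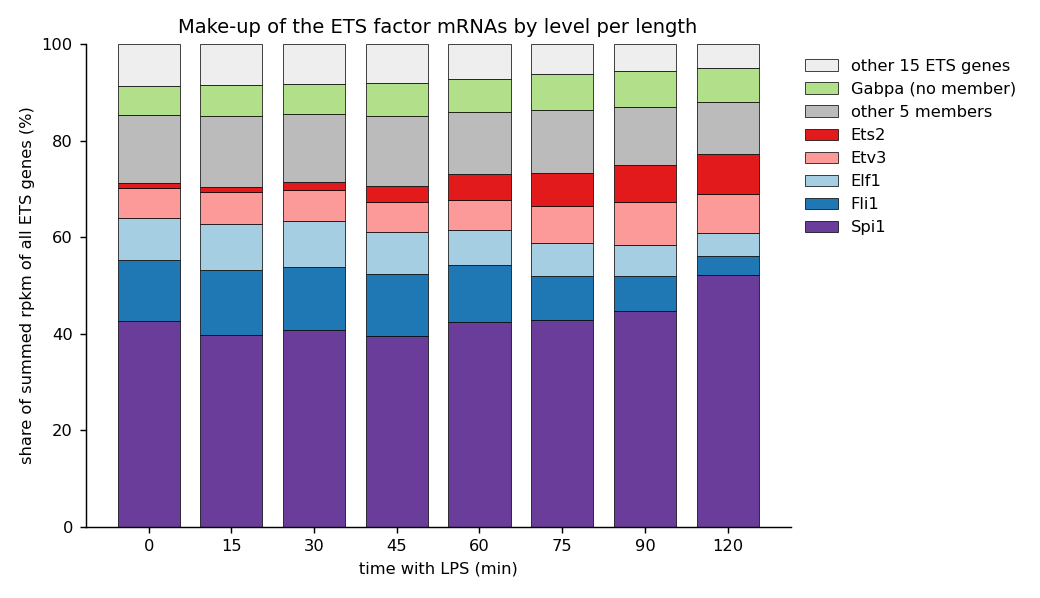
Share of the summed rpkm of 26 ETS genes taken by each group in each library (bars, 1 library each). Spi1 went from 42.6% at 0 min to 52.1% at 120 min, Fli1 from 12.7% to 3.99%, and Ets2 from 1.05% to 8.40%.

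The Elf genes encode a branch of related activators that includes Elf4, a factor of lymphocyte and myeloid cells, and Elf1 and Elf2 share most of their DNA-binding domain. Elf1 (chr14:79481174-79582491) had normalized counts of 11921 at 0 min, 13636, 13788 and 13177 at 15, 30 and 45 min, 10918, 10733 and 10528 at 60, 75 and 90 min, and 8405 at 120 min. It was above the 0 min level in the 3 early libraries and below it in the 4 later ones. The slope was -0.31 ± 0.07 log2 units per hour (adjusted p = 0.00646), which became -0.23 with adjusted p = 0.065 without the 120 min library. At 120 min the ratio to 0 min was 0.705 (0.687 to 0.723), outside the calls for this pair of libraries.

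Elf2 (chr3:51252720-51340683) showed a course of smaller amplitude. Its normalized counts were 7284 at 0 min, 7458 and 7490 at 15 and 30 min, 6807 at 45 min, 6264, 6273 and 6315 at 60, 75 and 90 min, and 5893 at 120 min. The 3 earliest libraries were the highest and the last was the lowest. The slope was -0.18 ± 0.03 log2 units per hour (adjusted p = 0.00244).

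Elf4 (chrX:48411049-48463132) showed no slope, at 0.0025 ± 0.099 log2 units per hour (adjusted p = 0.986), and its sign turned under 9 of 16 alternatives. Its normalized counts in the 8 libraries were 2495, 2800, 2538, 3369, 2660, 3282, 2769 and 2422. The course was a zigzag. The 4 libraries with the larger Rn45s share (15, 45, 75 and 90 min) held 2769 to 3369, and the other 4 held 2422 to 2660, without overlap. Among all genes tested, 1.20% were higher in each of those 4 libraries than in any other and 1.22% were lower. With the Rn45s share as a covariate the slope of Elf4 was -0.05 (adjusted p = 0.448), likewise not called. Elf4 is the only one of the 10 members whose values split in this way.

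Of the ternary complex factors, Elk3 fell and Elk4 rose. Elk3 (chr10:93247415-93311159), which represses its targets unless phosphorylated, had normalized counts of 4579 at 0 min, 4993, 4916 and 4718 at 15, 30 and 45 min, 4077, 3850 and 3870 at 60, 75 and 90 min, and 3312 at 120 min. As for Elf1, the early libraries were above and the later ones below the level at 0 min. The slope was -0.29 ± 0.05 log2 units per hour (adjusted p = 0.00201).

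Elk4 (chr1:132007577-132026448) had 3279, 4121, 3659, 4373, 3918, 4648, 4459 and 4536 normalized counts in the 8 libraries. All 7 stimulated libraries were above the 0 min library, again with a zigzag up to 75 min. The slope was 0.20 ± 0.06 log2 units per hour (adjusted p = 0.0288), and 0.17 (adjusted p = 0.0099) with the Rn45s share as a covariate. This was the weakest of the 8 calls. It was lost without the 0 min library (0.13, adjusted p = 0.127), without the 30 min library (adjusted p = 0.06) and without the 90 min library (adjusted p = 0.0625). The call was also lost with total counts as the scale (0.07, adjusted p = 0.351) and with total counts without Rn45s (0.09, adjusted p = 0.264). Elk1, the third ternary complex factor, changed little, with a slope of 0.08 log2 units per hour (adjusted p = 0.0618).

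Elk4 was also the only one of the 8 members with a RefSeq promoter entry to hold CCGGAA, in 1 of its 3 promoters. Of all promoters 14.9% hold it, so a single member is near the background. The site is shown because it holds the longer ETS letters in a gene of the family itself, with the motif in capitals, and starts at -68.
Elk4 site, chr1:132007544-132007565, plus strand: cccctcccCCGGAAgtgacgct
The AP-1 site TGANTCA occurred in 1 of the 2 promoters each of Elf1, Elf2 and Elf4, at -23, -196 and -39 from the respective start. It is held by 7.81% of all promoters, a share counted by promoter and not by gene. Fli1 and Spi1 were without a promoter entry.

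Etv6 (chr6:134035700-134270158), a repressor of blood cell development, had normalized counts of 5557 at 0 min, 6340, 6370 and 7376 at 15, 30 and 45 min, 7042, 7337 and 6724 at 60, 75 and 90 min, and 6535 at 120 min. It stood above the 0 min level in all 7 stimulated libraries, highest at 45 min at 1.33-fold. A straight line described this poorly, with a slope of 0.10 ± 0.06 log2 units per hour (adjusted p = 0.224). With a quadratic term in time the change was called (adjusted p = 0.00722), and with total counts as the scale the slope was -0.03.

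At 15 min 9 of the 10 members and at 30 min all 10 had a higher normalized count than at 0 min, against 55.4% and 52.6% of all genes tested. Their medians were 0.17 and 0.15 log2 units, against 0.02 and 0.01 for all genes. By 120 min 5 of the 10 were above 0 min, against 49.2% of all genes tested. The 0 min library read low for long transcripts (-0.24 log2 units in the longest bin of transcript length). With each library's trend with length removed, 8 members were above 0 min at 30 min, Elf2 being at -0.05 and Elf4 at -0.07, and the members' medians were 0.07 at 15 min and 0.11 at 30 min. Apart from Ets2, no member was called before 90 min. With total counts as the scale every ratio to 0 min is lower, by 0.07 log2 units at 15 min and by up to 0.33 at 75 min. On that scale 8 and 9 members stood above the unstimulated level in the 15 and 30 min libraries, and 5 in the last one. Those that changed sides were Elf2 at 15 min, Elf4 at 30, 60 and 90 min, Etv3, Elf1 and Elk3 at 45 min, Spi1 at 45 and 75 min, and Fli1 at 45 and 60 min. With total counts, or with the trend with length removed, the share of all genes above 0 min was not counted.

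Because the study examined AU-rich elements, the 3′UTRs of the members were searched in GENCODE transcripts (GRCm38) for the AUUUA pentamer. Etv3 and Etv6 held 7 each, Ets2, Elf1, Elf2 and Elk4 held 6 each, Elk3 5, Fli1 4 and Elf4 1, whereas the 3′UTR of Spi1, of 362 bases, held none. The median over 10012 genes was 1 pentamer, or 1.31 per kb. Most of these 3′UTRs are long: they run from 1572 to 3681 bases in the 9 members other than Spi1, against a median of 1059. Per kb, Elf1 had 3.48, Ets2 3.14, Fli1 2.54, Elk4 2.15, Etv3 2.01, Elk3 1.93, Etv6 1.90, Elf2 1.65 and Elf4 0.277. The longer element, UUAUUUA followed by 2 bases that are each U or A, was found in 2 of the 10 members, Etv3 and Etv6, and in 16.7% of all genes, so the members are near the background. The 3′UTRs of Etv3 and Etv6 have 3490 and 3681 bases, longer than those of 90.1% and 91.3% of the genes. The 2 separate sites of Etv3 and the first of 3 overlapping sites of Etv6 are shown in DNA letters, with the element in capitals, as the only matches among the members.
Etv3 site, chr3:87539410-87539434, plus strand: gagcttgtTTATTTAAAcagtttgc
Etv3 site, chr3:87539641-87539665, plus strand: ttgtttttTTATTTATTccataatt
Etv6 site, chr6:134267672-134267696, plus strand: attttattTTATTTATTtatttatt
By the line on time, Etv3 rose and Etv6 was not called.

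Among the remaining 16 ETS genes of the mouse, 7 had enough counts to be tested, of which 1 rose, 2 fell and 4 were not called. The shares over all genes were 23.4% rising and 23.1% falling. Gabpa, which activates genes of mitochondrial function and works with the Gabpb proteins, rose with a slope of 0.32 ± 0.04 log2 units per hour (adjusted p = 0.000315), from 9602 normalized counts at 0 min to 14890 at 120 min. Of its partners, Gabpb1 rose with a slope of 0.26 (adjusted p = 0.018), and the more abundant Gabpb2 was not called (0.06, adjusted p = 0.19). Erf, a repressor controlled by ERK, fell with a slope of -0.60 (adjusted p = 0.00138) from 3459 to 1714 normalized counts, and Etv5 fell with -0.51 (adjusted p = 0.000417) from 2803 to 1388. Etv1 stayed close to its starting level, with log2 ratios between -0.10 and 0.22. Ets1, the nearest relative of Ets2, had 3 to 11 counts per library, 0.0122 rpkm at 0 min. Erg, the nearest relative of Fli1, had 0 counts at 0 and at 120 min, which allows at most 0.0229 and 0.0189 cpm (3 counts of the total). Spib, the nearest relative of Spi1, was at 0.0643 rpkm.

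Of 15 genes whose proteins bind DNA or act beside ETS factors, 14 were tested, and 5 rose, 3 fell and 6 were not called. These counts stand against 23.4% rising and 23.1% falling among all genes. Srf, the partner of the ternary complex factors, rose with a slope of 0.76 ± 0.12 log2 units per hour (adjusted p = 0.00117), reaching a log2 ratio of 1.12 at 60 min. Irf4 and Irf8 bind composite sites together with PU.1 and went opposite ways. Irf4 rose 2.01-fold per hour (adjusted p = 0.00382), to a log2 ratio of 1.52 at 120 min, and Irf8 fell with -0.54 (adjusted p = 0.000772). Cebpa, which acts with PU.1 in myeloid cells, fell with -0.58 (adjusted p = 0.0174) and was lowest at 75 min, at a log2 ratio of -1.32, whereas Cebpb rose with 0.33. Jun, which occupies joint AP-1 and ETS elements, was highest at 45 min at a log2 ratio of 5.14 and at -0.44 at 120 min, a course that a line cannot describe (slope not called). Cbfb, with no more than 0.15 log2 units of change, was the steady one.

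**Figure D5:**
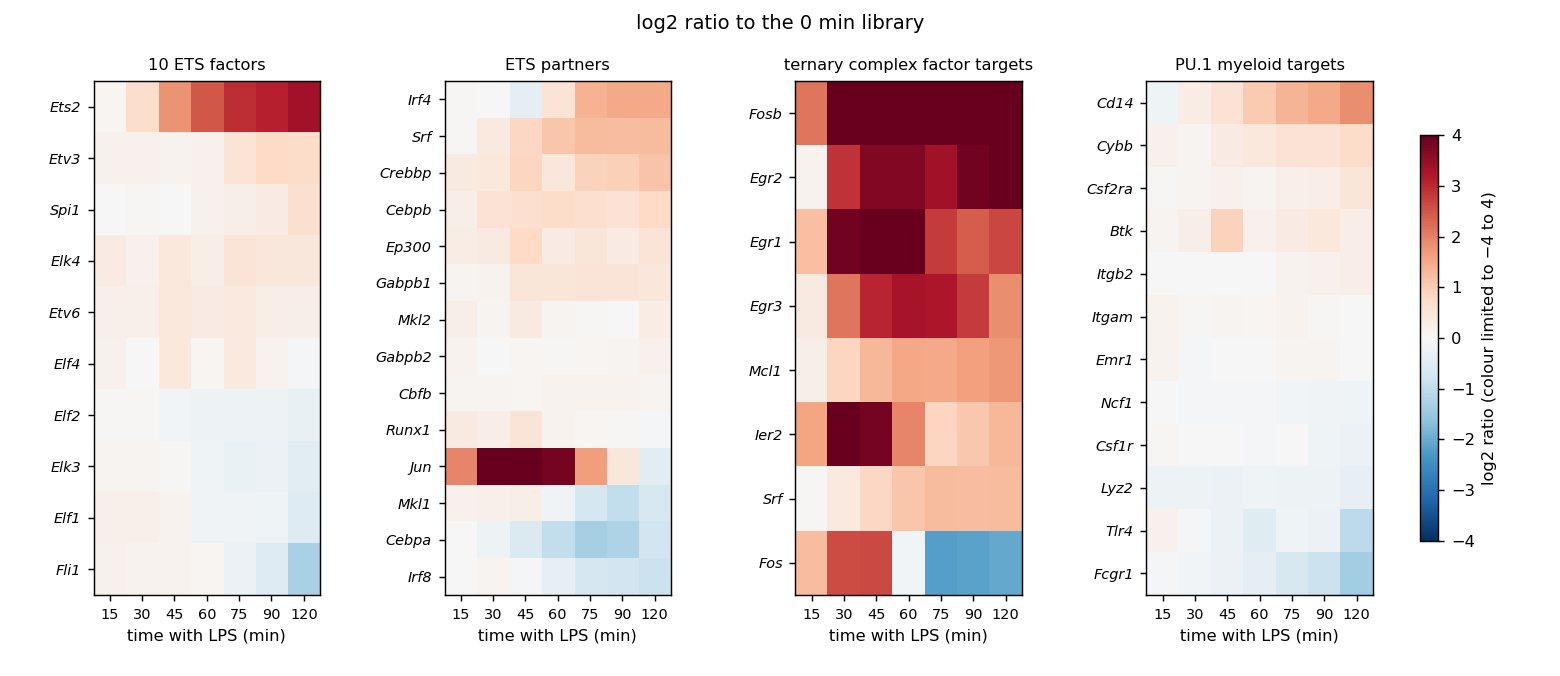
Log2 ratio to the 0 min library (colour, limited to -4 to 4) of the 10 members and of the tested genes of 3 lists, 1 library per column. Fosb, Egr1 and Egr2 are red from 30 min on, with Egr1 at 5.34 at 45 min and lighter from 75 min (2.79). Srf and Mcl1 are paler, and Fos turns from red to blue (-2.20 at 75 min), while most PU.1 targets stay pale. Among the members only Ets2 goes beyond 2.

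The 8 immediate early genes with serum response elements, the classical targets of SRF and the ternary complex factors, were called higher than 0 min in 7 cases at 30 min, 7 at 60 min and 7 at 120 min, with 1 lower at 120 min (Fos). Among all genes, 1.41%, 4.22% and 9.42% were called higher at these times, and 8.39% lower at 120 min. By the line on time 3 rose (Srf, Mcl1 and Egr2), none fell and 5 were not called. Fosb reached a log2 ratio of 7.86 and Egr1 of 5.34 at 45 min. Ier2 was highest at 30 min (4.06), and Fos was at 2.63 at 45 min and at -2.06 at 120 min. Egr2 remained high, at 3.99 at 120 min. The mRNAs of Elk1, Elk3 and Elk4 had log2 ratios between -0.47 and 0.50 in the 7 stimulated libraries.

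Of the 12 myeloid genes known to be bound by PU.1, 4 rose, 4 fell and 4 were not called, with a median slope of 0.0001 log2 units per hour. All genes tested were split about as evenly, with 23.4% rising and 23.1% falling. Cd14, the LPS co-receptor, rose with a slope of 1.09 ± 0.09 (adjusted p = 7.69e-05) to a log2 ratio of 1.87 at 120 min. Fcgr1, a receptor for IgG, fell with -0.69 (adjusted p = 0.000134) and was at -1.39, and Tlr4, the LPS receptor itself, fell with -0.45 (adjusted p = 0.01) and was at -1.04 at 120 min. The integrin gene Itgam and the lysozyme gene Lyz2 were not called, with log2 ratios between 0.02 and 0.15 and between -0.32 and -0.17. Btk was not called either, its log2 ratio being 0.93 at 45 min and at most 0.42 in the other libraries. Spi1 itself had a log2 ratio of 0.65 at 120 min.

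The genes whose course over the 8 libraries was most like that of each changing member were sought by Pearson's coefficient on log2(normalized count + 1) among 10494 genes with a mean of at least 100. For Ets2 they were Myc, Etf1 and BC027231 (0.998, 0.998 and 0.997). The likeness is one of shape, since Myc reached a log2 ratio of 4.70 at 120 min and Etf1, a translation termination factor, one of 0.88. For Etv3 they were Pus3, 5430427O19Rik and Flrt2 (0.992, 0.987 and 0.982), and for Fli1 Frmd4b, Snx24 and Hmha1 (0.998, 0.997 and 0.997), which were at -2.43, -1.51 and -0.92 at 120 min. Coefficients over 8 libraries of a common time course are given as a description.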

How the data were processed

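RNA from RAW264.7 cells was depleted of ribosomal RNA with Ribo-Zero and sequenced by the authors, 1 library per time point, as 58-base directional reads. The labels give the RNA fraction as cytoplasmic and the molecule as total RNA. The deposited values are counts of reads, not normalized, summed by gene symbol. Per the paper's methods, reads were aligned with Bowtie to RefSeq transcripts (mm10) with at most 2 mismatches, and reads matching more than 1 gene were discarded. Submitters' notes name CASAVA 1.8.2 and DESeq 1.10.1. Whether counting used strand is not given in the sources used here.

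Counts were scaled by median-of-ratios size factors. The trend over time was fitted with edgeR 4.0.16 (R 4.3.3), after filterByExpr, with 6 residual degrees of freedom. The spread around a line holds curvature as well as error. Pairs of libraries were tested in Python 3.11.15 (scipy 1.17.1) with a dispersion of 0.0287 + 0.853/mean fitted blind over the 8 libraries, as for DESeq. With simulated straight slopes of 0.5 log2 per hour and a constant dispersion, all 100 changed genes were found and 17 of 12254 unchanged genes were called. Smaller slopes, curved courses and the alternation of the Rn45s share were not simulated. The simulation therefore cannot tell how well slopes below 0.5, such as those of most called members, are found. For the pattern groups, all 200 genes with a simulated 4-fold change, held from 60 min on, were found. Of 10294 unchanged genes, 118 were placed outside g0. This simulation had a constant dispersion below the 0.0287 fitted to the data. Smaller changes, such as those of Etv3 and Fli1, were not simulated, so it cannot tell how well these are grouped. Rpkm used GENCODE vM21 transcripts matched by RefSeq accession, less 57 start positions. Gene coordinates and promoters come from RefSeq (GRCm38.p6).

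Members and gene lists were chosen with earlier results of these data known. Named from each list were up to 4 genes with the largest log2 ratio at any time (mean at least 100) and up to 2 uncalled genes with the highest mean, and for each member in g1 or g2 the 3 genes most alike. Spib, Etv2, Ets1, Erg, Gabpb1, Gabpb2, Irf8, Cebpb and Mcl1 were named after their values were seen, as were the motif searches and the comparison by Rn45s share. Alternatives were other scales (TMM, total counts, total counts without Rn45s), no filter, DESeq2 1.42.0, a quadratic term, Rn45s as a covariate, other call limits, removal of the trend with transcript length, and each library left out.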

Additional observations from a re-analysis of the deposited data

How the results depend on the processing

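Results of the comparison between libraries that crossed a limit were few. At 30 min 1 member was called, and 0 were with a log2 ratio limit of 1, with Benjamini-Hochberg adjustment, with total counts or with total counts without Rn45s as the scale. Calling by a log2 ratio beyond 0.5 with no test gave 5 members at 120 min in place of 3, and 6 in g1 to g4 in place of 3 (Spi1, Elf1 and Elk4 in addition). The number in g1 to g4 was 2 to 3 when single libraries were left out. Over all genes, the trend called 5809, and 4789 to 6009 when single libraries were left out, 2519 with the 0, 30, 60 and 120 min libraries alone (2 residual degrees of freedom), and 5551 to 6811 under the other alternatives. With total counts the split was 1238 rising and 4470 falling and the median slope -0.13, and without Rn45s 1676 and 5135 and -0.11.

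Slopes of Ets2 and Etv3 were called under all 16 alternatives, those of Spi1, Elf2 and Elk3 under 15, of Elf1 and Fli1 under 14 and of Elk4 under 11, with no change of sign. In these counts, the quadratic alternative is a joint test of slope and curvature. Its sign is that of the fitted change from 0 to 120 min. With 4 libraries alone, Elf1, Elf2, Elk3 and Fli1 lost their calls. Among uncalled slopes, that of Elf4 changed sign under 9 alternatives and that of Etv6 under 2, both with total counts as the scale. With the trend with transcript length removed, Spi1 was called at 120 min (0.72). Without a 0 min library no ratio to it exists, so that alternative was not run for pairs. No paired analysis was possible because each time point has 1 library. Counting error was small at 1456 or more counts per member, and the spread between cultures is unknown.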

Other observations

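Among the 45 pairs of members, the courses of Elf1 and Elk3 were the most alike over the 8 libraries (Pearson's coefficient 0.984 on the log2 scale), followed by Elf2 and Elk3 (0.943) and by Elf1 and Fli1 (0.912). Spi1 and Fli1 ran most clearly opposite (-0.971), and Ets2 and Elf2 next (-0.957). All members share the same 8 libraries and the same time axis, so these coefficients describe shapes and carry no p-value.

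With Spi1 left out, the summed rpkm of the other 9 members was 123.6 before stimulation, highest at 30 min with 136.1 and lowest at 120 min with 116.3, while the make-up within that sum changed from Fli1 first to Ets2 first.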
